A study of Mus musculus with 3 samples.

Results

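The interferon-induced transmembrane genes Ifitm1, Ifitm2 and Ifitm3 were followed across 3 populations of mouse CD8 T cells, each measured on 1 array. Every probe set whose annotation gives 1 of these symbols alone was taken, which left 3 probe sets, 1 for each gene, out of 45101 on the array and 18194 named genes. The 3 genes were chosen by their signal differences between these arrays, which were known beforehand, so those values are given as a description and not as a test.

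The CL4-TCR population comes from mice whose transgenic T cell receptor makes CD8 T cells recognise hemagglutinin (HA) of influenza virus. The VILLIN-HA/CL4-TCR population, and likewise Villin-HA + CL4-TCR, joins the same receptor with HA whose expression the villin promoter drives in gut epithelium, so the receptor is shared by all 3. The tissue label is MLN, the mesenteric lymph node, and 6 µg of total RNA went into each labelling. The series' design names CD8 T cells, cells activated in the animal and regulatory cells formed there, and no label ties either HA array to the activated or the regulatory kind. Because the names are alike, the arrays are called no-HA (CL4-TCR, whose label names no HA transgene), HA-slash (VILLIN-HA/CL4-TCR) and HA-plus (Villin-HA + CL4-TCR) from here on. The labels state no age, number of mice or pooling.

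IFITM proteins are small membrane proteins that block the entry of enveloped viruses by making the fusion of viral and cell membranes harder. IFITM3 sits mainly in endosomes and lysosomes, IFITM1 more at the cell surface, and all are made in larger amounts after type I or type II interferon. Interferon acts on a transcription factor complex that binds a DNA element called the interferon-stimulated response element, whose core repeats the letters GAAA.

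The values are MAS5 signals, in which the probes of a probe set are joined into 1 linear number and each array is scaled as a whole. The trimmed mean was 150 on each array and the median 30.6, 29.4 and 35.3 on the no-HA, HA-slash and HA-plus arrays. Values under a floor of 31.7, the median of all values, were raised to it, and a gene was measured in a comparison if it exceeded the floor on either array. Calls of higher or lower were made from 2-fold upward, and a fold against an array at the floor is a lower bound. There are no replicates, so no test between populations can be made, and precision is limited by the number of arrays. The ratio of the 3′ to the 5′ Gapdh control probe sets was 18.4, 46.2 and 3.35. Xist, the RNA of the inactive X chromosome, had signals of 5442.5, 2.5 and 1339. Of the Y chromosome genes, Eif2s3y had 13.4, 1496 and 746.9, Kdm5d 0.8, 402 and 135.9 and Uty 17.8, 176.8 and 51.5. The HA-plus array thus held Xist and Y chromosome RNA together, and whether mice of both sexes were pooled is not stated. The titles of the no-HA and HA-slash arrays carry consecutive numbers and that of the HA-plus array a higher one. No label says what these numbers mean. RNA quality, the sex of the mice and whatever the title numbers stand for cannot be told apart from the population. CD8 T cell genes were present on every array, with 10 of 10 genes of that list above the floor and summed signals of 15481 to 18684, though the signalling adaptor gene Lat and the adhesion gene Cd2 were lower on the HA-slash array (log2 differences of -1.90 and -1.69). Between the HA arrays 1 of the 10 was higher on the HA-plus array (Lat, 2.59-fold) and 1 lower (Cd5, 2.13-fold). Of all measured genes 8.95% were higher and 6.14% lower there. The sums use the brightest probe set of each gene. The 5 probe sets of Cd8a gave log2 differences from -0.01 to 2.01 between the HA-plus and no-HA arrays. Cd4 lay below the floor on all 3 arrays.

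The promoters of the 3 members are shown because the genes lie side by side and stood high on the same array. They are RefSeq windows of 300 bases (250 before the gene's start and 50 after it) on build GRCm38.p6, given 5′ to 3′ on the gene's strand, with capitals marking matches to the spaced GAAA repeat, that is GAAA, 2 bases of any kind and GAAA again, a core of the response element that was searched on both strands. Ifitm1 lies at chr7:140967826-140968125 (+), Ifitm2 at chr7:140955912-140956211 (-) and Ifitm3 at chr7:141010695-141010994 (-).
Ifitm1: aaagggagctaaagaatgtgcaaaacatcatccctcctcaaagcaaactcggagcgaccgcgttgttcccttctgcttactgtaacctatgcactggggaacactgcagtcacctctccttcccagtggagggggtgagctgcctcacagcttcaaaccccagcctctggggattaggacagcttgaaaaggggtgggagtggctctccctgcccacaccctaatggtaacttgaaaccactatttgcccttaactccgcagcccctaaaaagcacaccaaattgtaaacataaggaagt
Ifitm2: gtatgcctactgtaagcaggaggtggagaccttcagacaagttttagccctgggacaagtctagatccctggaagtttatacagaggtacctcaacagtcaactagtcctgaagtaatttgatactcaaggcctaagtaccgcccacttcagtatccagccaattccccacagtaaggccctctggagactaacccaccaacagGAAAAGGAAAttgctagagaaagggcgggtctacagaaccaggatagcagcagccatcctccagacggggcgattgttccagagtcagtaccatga
Ifitm3: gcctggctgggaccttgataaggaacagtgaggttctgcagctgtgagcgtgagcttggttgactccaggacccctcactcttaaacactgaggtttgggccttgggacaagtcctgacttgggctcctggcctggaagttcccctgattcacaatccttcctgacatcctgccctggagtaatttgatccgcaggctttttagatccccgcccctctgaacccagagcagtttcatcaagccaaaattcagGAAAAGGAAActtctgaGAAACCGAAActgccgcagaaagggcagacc

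The Ifitm2 window held 1 match to the spaced repeat, GAAAAGGAAA, at bases 205 to 214. The Ifitm3 window held 2 matches, GAAAAGGAAA at bases 253 to 262 and GAAACCGAAA at bases 270 to 279, and both lie just after the annotated start. The Ifitm1 window held 0 matches, which says only that these letters are not in this window. The longest run shared by the Ifitm2 and Ifitm3 windows was 13 bases, caggaaaaggaaa, and it takes in the match that both genes carry. Ifitm1 shared no run longer than 8 bases with either. The motif TTCNNNGAA, the element bound by STAT dimers after interferon gamma, occurred once in the Ifitm3 window, as TTCTGAGAA at bases 264 to 272, where it overlaps the match at 270, and in 0 of the windows of the other members.

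Among all 32851 promoter windows of this length, 3.44% held the spaced repeat and 8.30% held TTCNNNGAA. Of the 4 other Ifitm genes, 0 had a window with the spaced repeat. A match is a description of letters and not of a bound site, and no binding was measured here.

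All 3 members were highest on the HA-plus array and close to the floor on the other arrays. Ifitm1 had a signal of 18.9 on the no-HA array, 25.3 on the HA-slash array and 3069.5 on the HA-plus array. The first pair of values lies below the floor and has no order, so Ifitm1 was at least 96.8-fold higher on the HA-plus array than on either of the others.

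Ifitm3, the member best known for restricting influenza virus, had signals of 41.4, 49.2 and 1964.7 in the same order of arrays. It lay above the floor on every array, so its folds are measured on both sides. It was 47.5-fold higher on the HA-plus array than on the no-HA array and 39.9-fold higher than on the HA-slash array. Among 9497 genes above the floor on both arrays of the former comparison, 4 had a larger increase in signal, Gzma, Rgs1, Fos and Rrm2. Among 9683 in the latter, Gzmb and Gzma alone had a larger one.

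Ifitm2, a close relative of Ifitm3, had signals of 30.5, 37.8 and 195.3. Its highest value was again on the HA-plus array, at least 6.16-fold above the no-HA array and 5.17-fold above the HA-slash array. The 3 members thus shared the order of arrays with different sizes of difference. Between the HA arrays, where Ifitm2 and Ifitm3 were each above the floor, their log2 differences were 2.37 and 5.32, and these differ by -2.95 (Ifitm2 minus Ifitm3). The disagreement between probe sets of 1 gene in this comparison had a pooled log2 SD of 0.61 over 4222 genes, or 0.86 for a difference of such values. That SD covers probe effects and not animals. Each member has 1 probe set, and whether a probe set also detects RNA of a relative was not tested.

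Between the HA-slash and no-HA arrays no member was called. Ifitm3 had a log2 difference of 0.25, with 2834 of 9353 genes showing a larger increase, and Ifitm2 one of at least 0.25. Ifitm1 was not measured there. The pooled SD between probe sets in this comparison was 0.43, larger than the difference of Ifitm3.

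As background, 11.9% of 12196 measured genes were called higher and 9.53% lower on the HA-plus array than on the no-HA array, 8.95% of 12081 higher and 6.14% lower than on the HA-slash array, and 7.43% of 11260 higher and 6.63% lower on the HA-slash than on the no-HA array. In the same order 3 of 3, 3 of 3 and 0 of 2 measured members were called higher, counts that follow from how the genes were chosen. Of all calls, 55.6%, 59.3% and 52.9% were higher, and these shares became 38.3%, 32.9% and 59.2% when the arrays were given equal medians and 42.0%, 65.5% and 31.9% with arrays scaled to housekeeping genes. The median log2 difference of all measured genes moved with them, from 0.06 to -0.14, from 0.06 to -0.19 and from -0.04 to 0.02 under the median scaling, and to -0.10, 0.10 and -0.24 under the housekeeping scaling. These shifts are small beside the members' differences on the HA-plus array.

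**Figure D1:**
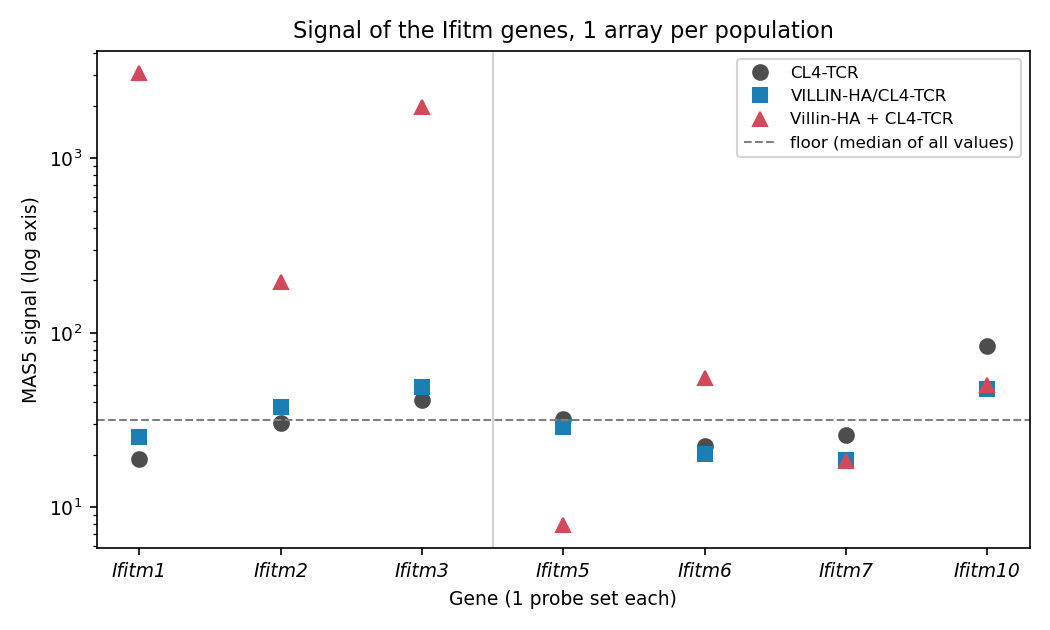
MAS5 signal (log axis) of the 7 Ifitm genes on the 3 arrays, 1 point per array, with the floor of 31.7 as a dashed line. Ifitm1, Ifitm2 and Ifitm3 stand at 3069.5, 195.3 and 1964.7 on the HA-plus array and near the floor elsewhere, while the other 4 genes reach at most 84.5 on any array.

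Of the 4 other Ifitm genes, 0 were called in any of the 3 comparisons. Ifitm5, a bone-forming cell gene, had signals of 31.9, 28.7 and 7.9, and Ifitm7 lay below the floor on all 3 arrays at 25.9, 18.6 and 18.4. Ifitm6, which lies next to Ifitm3 on chromosome 7, had 22.4, 20.1 and 54.9, above the floor on the HA-plus array alone, as Ifitm1 was, with a log2 difference of at least 0.79 from either of the other arrays. Ifitm10 went the other way, with 84.5, 47.5 and 50.5 and log2 differences of -0.83 and -0.74 from the no-HA array. Among 5 more distant genes with the same CD225 domain, Prrt1 alone was measured, at 201.9, 151.9 and 103.9, and it was not called.

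In gene order on chromosome 7 the members stand as Ifitm2, Ifitm1 and Ifitm3, with Ifitm5 before and Ifitm6 after them. The 10 nearest named coding genes on each side were read as a description, by a rule chosen after the members' values were seen. Of the 17 neighbours measured on the HA-plus and no-HA arrays, 5 were higher on the former, 0 lower, and their median log2 difference was 0.15. Among all measured genes 11.9% were higher and 9.53% lower, with a median of 0.06. The 5 were Psmd13, a proteasome subunit (1.17), Pkp3, a desmosome protein (1.22), Rnh1, the ribonuclease inhibitor (1.11), Rassf7 (1.05) and B4galnt4 (at least 1.24). The members' values on the same scale were 2.62 to 6.60, the lowest and the highest of them bounds. Between the HA arrays 2 of 16 measured neighbours were higher and 0 lower on the HA-plus array, beside 8.95% and 6.14% of all measured genes. Their median log2 difference was 0.28, beside 0.06 for all. Between the HA-slash and no-HA arrays 0 of 15 measured neighbours were called, where 7.43% of all measured genes were higher and 6.63% lower.

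**Figure D2:**
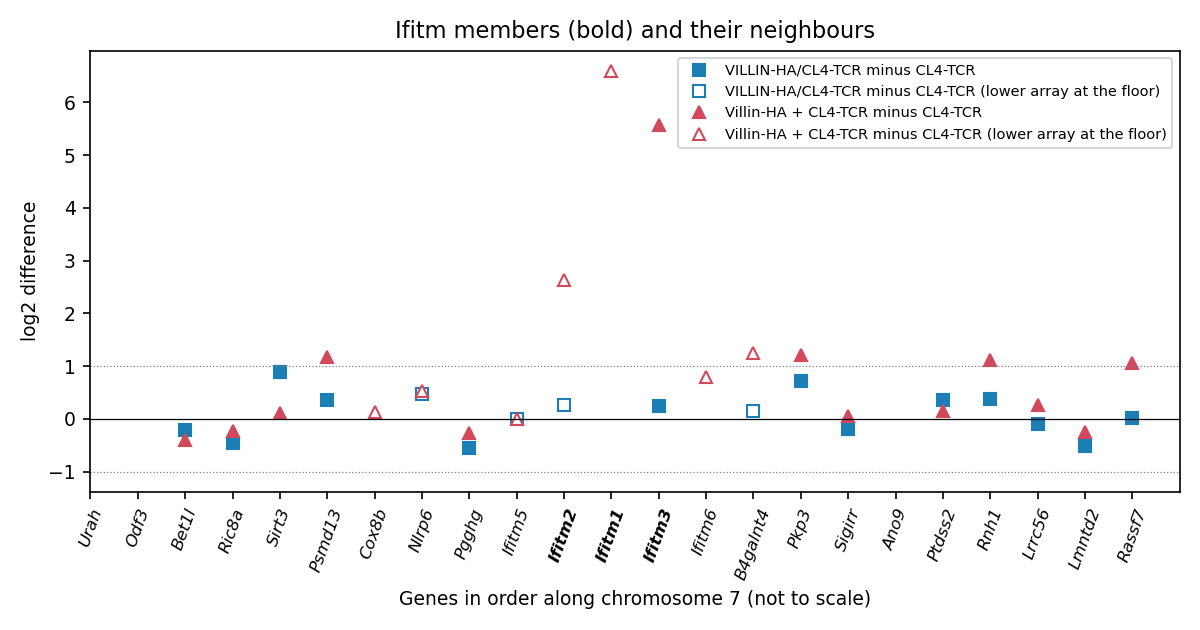
log2 difference from the no-HA array of the 3 members (bold) and the 10 nearest named coding genes on each side, in gene order along chromosome 7 and not to scale. Open symbols are bounds, and genes without a symbol were below the floor on both arrays. The members reach 2.62, 6.60 and 5.57 on the HA-plus array and the neighbours at most 1.24, a value that is itself a bound (B4galnt4).

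Few partners and modifiers of IFITM proteins were called by their brightest probe sets, at shares near those of all genes. Of 10 measured genes, 1 was higher and 0 lower on the HA-slash array against the no-HA array, and 0 were higher and 1 lower on the HA-plus array, where 7.43% and 6.63% of all measured genes were higher and lower in the former comparison and 11.9% and 9.53% in the latter. Cd81, a tetraspanin that joins IFITM1 at the surface of lymphocytes, had signals of 91.4, 500.3 and 182.0 and was 5.47-fold higher on the HA-slash array, the array on which Ifitm1 lay below the floor. It was 2.75-fold lower on the HA-plus than on the HA-slash array, the 1 call among the 10 genes there. Of all measured genes 8.95% were higher and 6.14% lower in that comparison. Setd7, a methyltransferase that acts on IFITM3, had 1088.7, 746.1 and 439.0 and was 2.48-fold lower on the HA-plus than on the no-HA array. Nedd4, the ubiquitin ligase that marks IFITM3 for breakdown, had 108.7, 114.0 and 108.5 by its brightest probe set, and its 3 probe sets gave log2 differences from -1.06 to 0.14 between the HA-plus and no-HA arrays. Zdhhc20, which attaches palmitate to IFITM3, had a log2 difference of -0.42 there by its brightest probe set, but its 4 probe sets gave -2.35 to 0.09. Zmpste24, a protease that works with IFITM proteins, had 0.60. Atp6v0b, another gene of this list, was not called by its brightest probe set. Its 3 probe sets gave log2 differences from 0.59 to 2.64 between the HA arrays and from -1.53 to -0.76 between the HA-slash and no-HA arrays.

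Interferon genes themselves were mostly low. Ifng, which encodes interferon gamma, had signals of 4.2, 58.7 and 631.5, at least 19.9-fold higher on the HA-plus than on the no-HA array and 10.8-fold higher than on the HA-slash array. Ifnb1, a type I interferon gene, had 21.0, 15.0 and 71.7, at least 2.26-fold higher on the HA-plus array than on either of the others. Its highest value lies close to the higher floor of 68.6 that was used as an alternative. Ifna1, Ifna2 and Ifna4 lay below the floor throughout and Ifna5 reached 32.5 on the HA-plus array. Ebi3, a subunit of interleukin 27 and not an interferon, was kept in the same ligand list and had 9.8, 63.1 and 149.2. Of the 4 measured genes of this ligand list, Ifng, Ifnb1 and Ebi3 were higher on the HA-plus array than on the no-HA array and Ifna5 was not called. That is 75% higher, beside 11.9% of all measured genes.

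On the HA-plus array against the no-HA array, receptors and signalling genes of the interferon pathway were called about as often as other genes. There 2 of 16 were higher and 2 lower (12.5% each, beside 11.9% and 9.53% of all measured genes), with a median log2 difference of -0.24. Irf7, a transcription factor that amplifies type I interferon, had 371.1, 162.9 and 819.3, 2.21-fold higher there and 2.28-fold lower on the HA-slash array. Usp18, an interferon-induced brake on the type I receptor, had 96.7, 53.8 and 321.9, 3.33-fold higher on the HA-plus array. Ifnar2, a chain of the type I receptor, was 4.83-fold lower by its brightest probe set, but its 3 probe sets gave log2 differences from -2.27 to 0.28. Irf2, which can repress interferon targets, was 2.01-fold lower.

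The receptor chains Ifnar1 and Ifngr1 had log2 differences of 0.37 and 0.60 on the HA-plus array, and Irf9, a subunit of the complex that binds the response element, had -0.11. On the HA-slash array 1 of these 16 genes was higher than on the no-HA array, Jak2 (2.12-fold), and 3 were lower, Socs3 (8.32-fold), Irf7 and Irf1 (2.03-fold). These are 6.25% and 18.75%, beside 7.43% higher and 6.63% lower of all measured genes. Between the HA arrays 4 of the 16 were higher on the HA-plus array, Socs3 (6.74-fold), Usp18 (5.98-fold), Irf7 (5.03-fold) and Ifngr1 (2.91-fold), and Ifnar2 was lower. The shares were 25% and 6.25%, beside 8.95% higher and 6.14% lower of all measured genes.

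Receptors of the interleukin 6 family signal through JAK and STAT proteins as interferon receptors do. Of 6 measured genes of that list, 1 was higher and 3 lower on the HA-plus than on the no-HA array. These are 16.7% and 50%, beside 11.9% and 9.53% of all measured genes. Il6st, the shared gp130 chain, was 4.62-fold lower by its brightest probe set (range of 3 measured probe sets -2.21 to -0.23 on the log2 scale), Il27ra 2.51-fold and Il21r 2.18-fold lower, and Lifr at least 2.08-fold higher. The Lifr signal of 65.8 on the HA-plus array lies under the alternative floor of 68.6, and 1 of its 3 probe sets was measured. On the HA-slash array Il6ra was 7.50-fold lower than on the no-HA array, and its 2 probe sets gave -2.91 and -0.95 on the log2 scale. The Il6ra signal of 33.6 on the HA-slash array lies close to the floor of 31.7. Il6ra was the 1 call among 5 measured genes there, where 6.63% of all measured genes were lower. Between the HA arrays 2 of 6 were higher and 2 lower on the HA-plus array, beside 8.95% and 6.14% of all measured genes.

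The wider set of interferon-induced genes gives the background for the members. Of 39 genes found from a list of 45, 17 were higher and 1 lower on the HA-plus array than on the no-HA array, which is 43.6% higher beside 11.9% of all measured genes. Their median log2 difference was 0.85, beside 0.06 for all. Against the HA-slash array 23 of 39 (59.0%) were higher and 0 lower, beside 8.95% and 6.14% of all measured genes, with a median of 1.42. On the HA-slash array 1 of 37 measured genes was higher and 5 lower than on the no-HA array, beside 7.43% and 6.63% of all genes, with a median of -0.56. The 5 lower genes became 13 with arrays scaled to housekeeping genes and 2 with the median over the probe sets of a gene, with 1 higher each time. These comparisons share arrays and are not independent of each other. The 3 member genes are not in this list.

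Ifi27l2a, a gene strongly induced by type I interferon, had signals of 294.8, 1197.9 and 3876.7 and was 13.2-fold higher on the HA-plus array than on the no-HA array. Ifit3, which binds viral RNA together with its relatives, had 54.1, 48.7 and 620.6, and Mx1, an antiviral GTPase, had 39.0, 55.4 and 394.6. Their log2 differences of 3.52 and 3.34 from the no-HA array lie above that of Ifitm2, which is a bound, and below those of Ifitm3 and Ifitm1. Ifit3 and Mx1 were thus near the floor on the same arrays as the members and high on the same array.

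Other genes of the list differed from the members in how they stood on the HA-slash array. Of the 39 genes, 30 had a lower floored signal there than on the no-HA array, and 20 of these 30 also had a higher signal on the HA-plus array. These counts take in differences of any size, and the same counts over all genes were not made. The median log2 difference of all measured genes between the HA-slash and no-HA arrays was -0.04, beside -0.56 for this list. Oas2, an enzyme that activates RNase L, had 134.8, 33.2 and 255.4, 4.06-fold lower on the HA-slash array. Epsti1 had 420.6, 154.2 and 1301.7, 2.73-fold lower by its brightest probe set, and its 4 probe sets gave log2 differences from -1.45 to 0.35. Lgals3bp, a secreted glycoprotein, was 2.47-fold lower. For Ifitm2 and Ifitm3 the values on the no-HA array lay so near the floor that a lower level could hardly have been seen.

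Between the HA arrays Ifit3 was 12.7-fold, Dhx58 9.53-fold and Epsti1 8.44-fold higher on the HA-plus array. The probe sets of Dhx58, a sensor protein that regulates RNA recognition, gave log2 differences from 0.50 to 3.25, and those of Epsti1 from 0.08 to 3.97. Iigp1, a GTPase induced by interferon gamma, was the 1 gene of the list that was lower on the HA-plus than on the no-HA array, with 1117.5, 741.4 and 522.2 (2.14-fold).

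**Figure D3:**
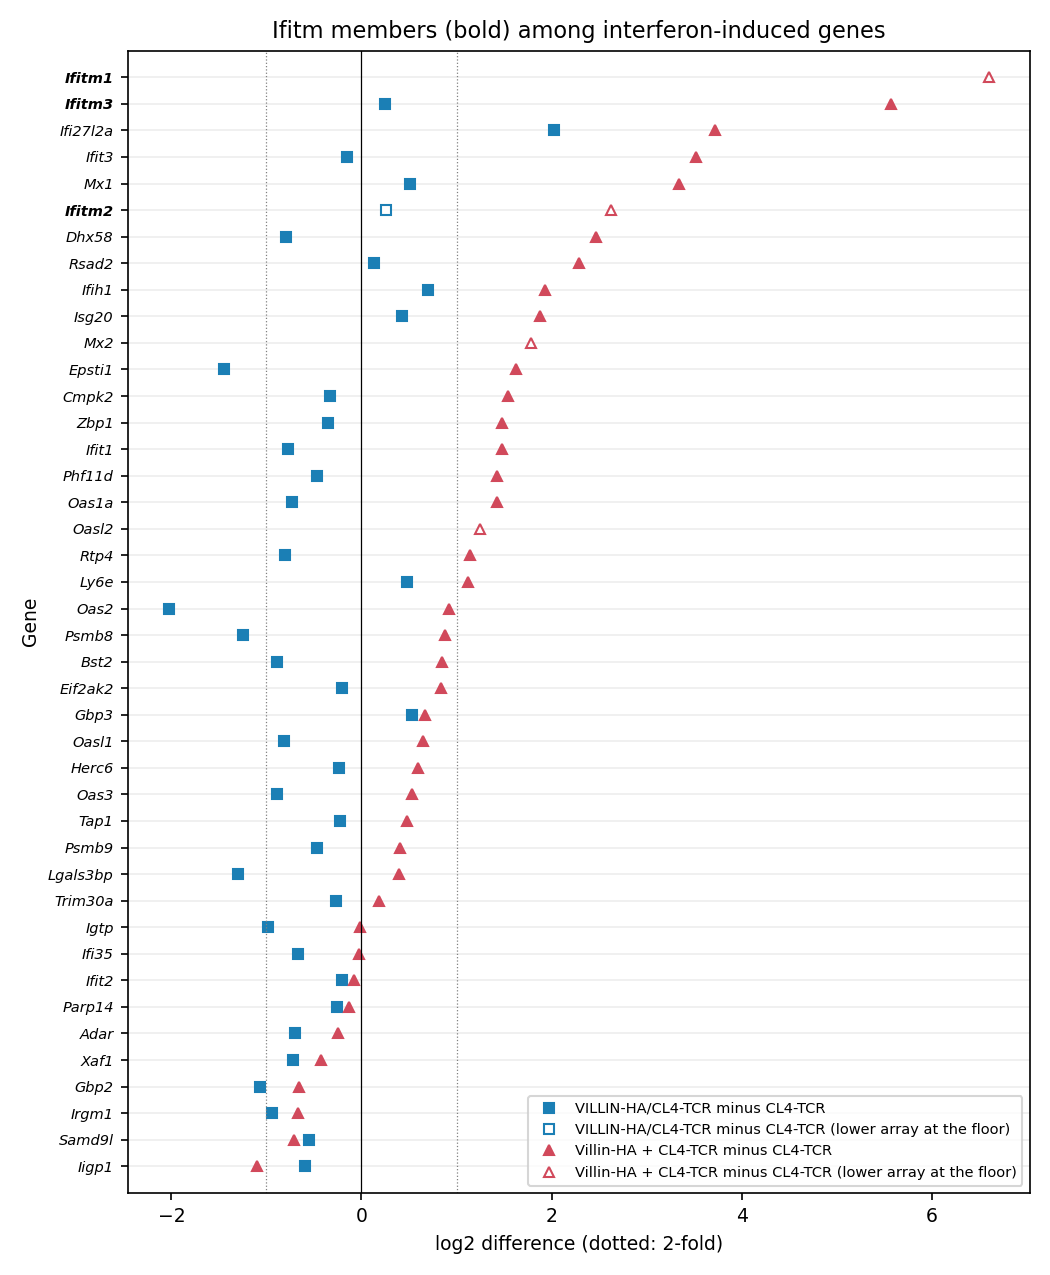
log2 difference from the no-HA array of the 3 members (bold) and 39 interferon-induced genes, squares for HA-slash and triangles for HA-plus, open where the lower array is at the floor. Ifitm1 and Ifitm3, at 6.60 and 5.57, lie past Ifi27l2a at 3.72, and most squares lie left of 0.

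Of the 32 interferon-induced genes with a promoter window, 14 (43.8%) held the spaced repeat, against 3.99% of all 27025 genes. The 13 of them with a named probe set had a median log2 difference of 0.83 on the HA-plus array against the no-HA array. Of these 13, 5 were higher. The 16 genes without a match had a median of 0.54, also with 5 higher. Among all measured genes 11.9% were higher, with a median of 0.06. Ifitm1 had no match in its window and Ifitm3 had 2, and both stood far above the median of either group. Whether the repeat bears on the differences was not tested.

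Likeness to each member was measured as the Euclidean distance between the pairs of log2 differences from the no-HA array, over 11419 genes above the floor on the HA-plus array, so it rests on 3 arrays. Genes pass that filter through the array on which the members are high. The larger difference of Ifitm1, of Ifitm2 and of all 5 genes listed for Ifitm3 is a bound set by the floor, so the distances and their order describe floored values alone. Nearest to Ifitm3 were Acta1 (0.37), the skeletal muscle actin gene, Myh1 (0.54), a muscle myosin gene, S100a6 (0.67), a calcium-binding protein gene, S100a8 (1.06), a neutrophil gene, and Lipf (1.23), a gastric lipase gene. Nearest to Ifitm1 were Myh1 (0.55), Gzma (1.06), the granzyme A gene of killer cells, S100a6 (1.34), Acta1 (1.42) and Dusp1 (2.01), a phosphatase gene induced by stress. Nearest to Ifitm2 were Pf4 (0.06), a platelet chemokine gene, Entpd1 (0.14), which encodes CD39, Gng2 (0.17), Haus7 (0.18) and Mt1 (0.19), a metallothionein gene.

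**Figure D4:**
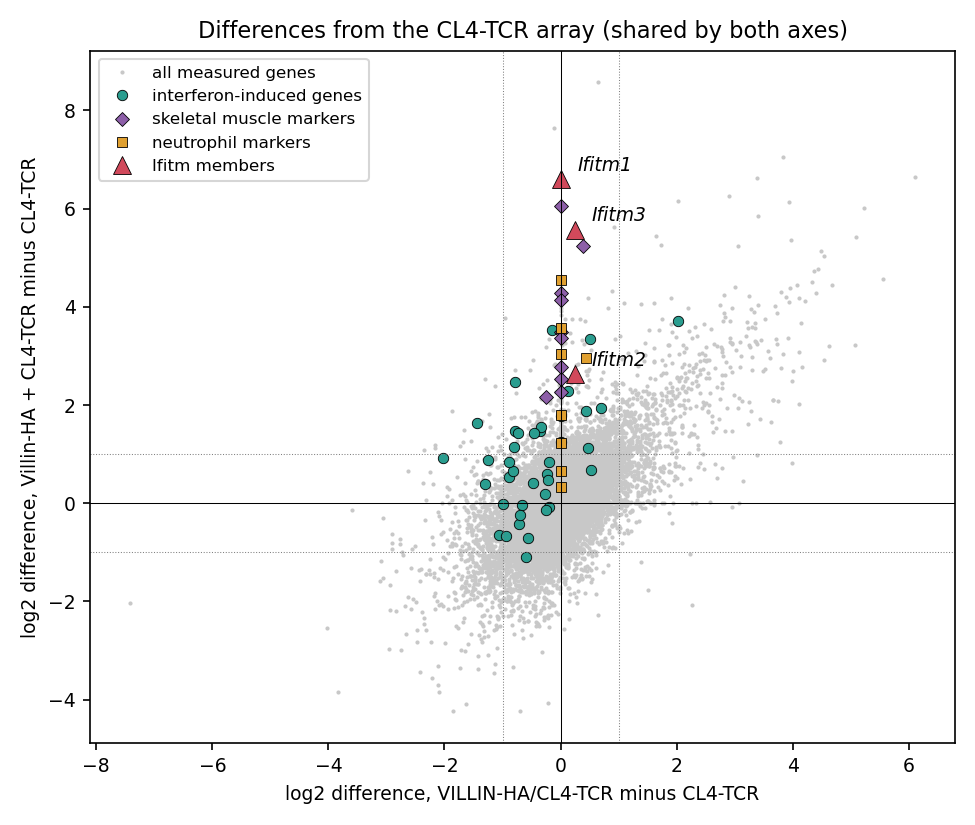
log2 difference from the no-HA array on the HA-slash array (x) and on the HA-plus array (y), which share the no-HA array. Shown are genes measured in either comparison (grey) and 4 gene lists, with dotted lines at 2-fold and bounds not marked. Ifitm2 and Ifitm3 lie along x near 0, at y values of 2.62 and 5.57. Ifitm1, at a y value of 6.60, was not measured along x, nor were Myh1 and S100a8, and an x of 0 is drawn for such genes. Muscle and neutrophil markers as well as Ifit3 and Mx1 lie in the same part of the plot.

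Markers of other cells stood high on the same array as the members. Of 11 skeletal muscle genes, 10 were measured and 10 were higher on the HA-plus than on the no-HA array, beside 11.9% of all measured genes. Their summed signals were 205.6, 187.7 and 6069 on the 3 arrays. Myh1 had 8.1, 5.1 and 2100.1 and Acta1 23.7, 41.6 and 1190.8. Of 10 neutrophil genes, 6 of 8 measured (75%) were higher in the same comparison, with summed signals of 168.7, 140.2 and 1922. S100a8 had 9.5, 12.9 and 738.7 and Ngp 31.7, 15.5 and 373.7, while the neutrophil genes Cxcr2 and Mmp8 were below the floor on all arrays.

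Of 12 genes of stroma and endothelium, cells that make Ifitm transcripts in many tissues, 6 of 8 measured (75%) were higher on the HA-plus than on the no-HA array. This stands beside 11.9% of all measured genes, and their summed signals were 169.3, 165.5 and 1220. The collagen gene Col1a2 had 36.4, 25.3 and 369.9 and Sparc, a matrix protein gene, 3.5, 3.0 and 217.8, while Pdgfrb, Cdh5 and Vwf were below the floor on all arrays. Fewer cells of a type and less RNA per cell cannot be told apart in such bulk samples, and no RNA of single cells was measured. The part of muscle, neutrophil and stromal RNA in the signals of Ifitm1, Ifitm2 and Ifitm3 was not tested.

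Myeloid and dendritic cell markers summed to more on both HA arrays. Their summed signals over 13 genes were 815.8, 2168 and 2258. Against the no-HA array 4 of 10 measured genes were higher on the HA-slash array and 5 of 10 on the HA-plus array, beside 7.43% and 11.9% of all measured genes. Between the HA arrays 2 of 12 were higher and 3 lower on the HA-plus array (16.7% and 25%, beside 8.95% and 6.14% of all measured genes), with a median log2 difference of 0.58. Lyz2, a macrophage lysozyme gene, had 84.5, 817.3 and 312.2 and Csf1r, a growth factor receptor gene of macrophages, 40.9, 384.1 and 125.0 by its brightest probe set. The 3 probe sets of Csf1r gave log2 differences from -1.62 to 0.60 between the HA arrays. Itgax, which encodes CD11c and is also made by activated T cells, had 38.9, 43.5 and 430.7, Cd68 had 39.5, 49.1 and 106.3, and the myeloid integrin gene Itgam was below the floor throughout. B cell markers summed to 340.9, 647.6 and 430.4 over 7 genes, with Cd79b, a chain of the B cell receptor, at 110.5, 199.1 and 233.1 and Cd22 at 72.7, 178.9 and 55.6. NK cell, CD4 T cell, erythroid and gut epithelium markers summed to at most 169.6 each on any array, over 3, 3, 3 and 6 genes.

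**Figure D5:**
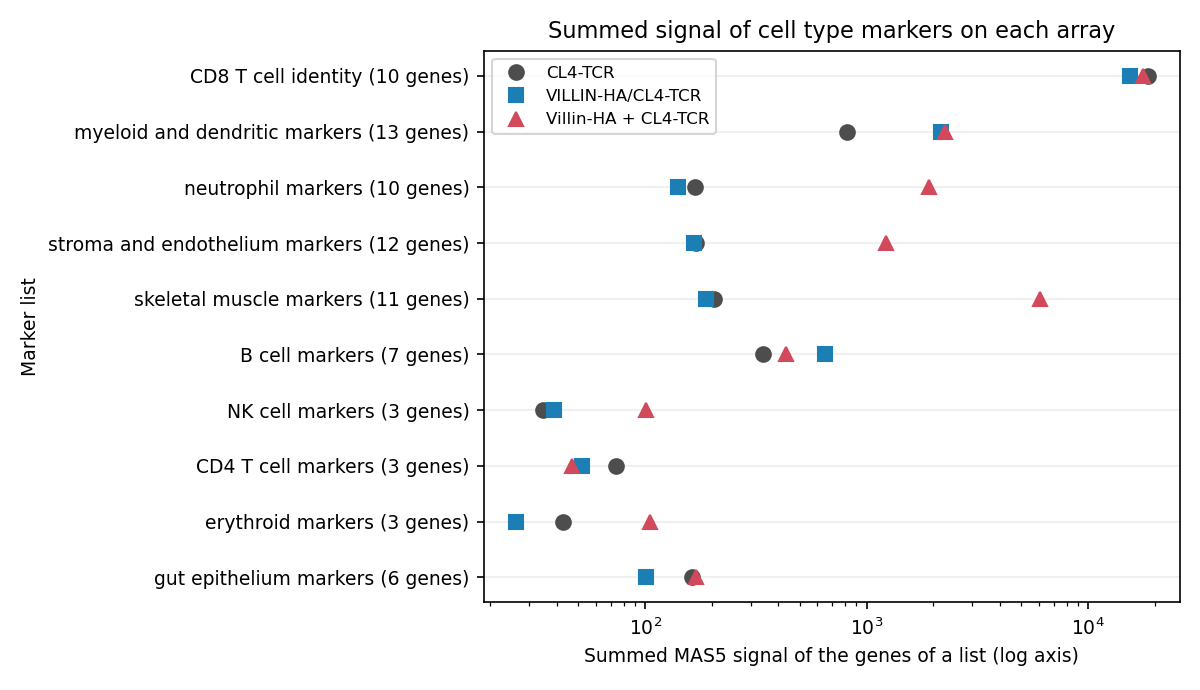
Summed MAS5 signal (log axis) of the genes of 10 marker lists on the 3 arrays, 1 point per array, with the number of genes in brackets. Muscle, neutrophil and stromal sums are 6069, 1922 and 1220 on the HA-plus array and near 140 to 206 on the others, while CD8 T cell sums differ little.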

How the data were processed

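The deposited values are MAS5 signal intensity per probe set on a linear scale, per the submitters' processing notes, which give no version; how background was set is not stated there. Equal trimmed means (2% at each end) show that each array had been scaled by the authors. From these values, log2 differences were computed with python 3.11.15, numpy 2.4.6 and pandas 2.3.3. Probe sets were named from the platform annotation, with symbols updated through Entrez identifiers to the RefSeq table of GRCm38.p6: 34958 had 1 symbol, 932 several and 9211 none, and those with several were not used. Each gene took its probe set with the highest mean signal. Groups came from the source names, 1 array each, so no p-value is given. Genes named were the members, called genes of the Ifitm and partner lists, the 3 largest differences in each direction of the interferon and interleukin 6 lists with 6 pathway genes in any case, the 2 brightest called markers of a list, and the 5 most alike per member. Members and lists were chosen with earlier results of these data known. Markers below the floor, Cd5, Cd8a, neighbours, the genes past Ifitm3, the Y chromosome genes and Atp6v0b were added later. The counting was tested on simulated data with changes put into genes far above the floor alone, so bounds were not covered. Alternatives were 2 floors or offsets, 3 scalings and 2 probe set rules.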

Additional observations from a re-analysis of the deposited data

How the results depend on the processing

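The direction of every measured difference of Ifitm1, Ifitm2 and Ifitm3 on the HA-plus array was kept under 7 alternatives: the floor at the 65th percentile (a signal of 68.6), a pseudocount of 16 without a floor, scaling to equal medians, quantile normalization, scaling to 10 housekeeping genes, probe sets built to match 1 transcript, and the median over probe sets. The 2 probe set rules could not change a member, because each has 1 probe set, so they are no check on these differences. With the higher floor all differences of the members on the HA-plus array are bounds: 5.48, 1.51 and 4.84 for Ifitm1, Ifitm2 and Ifitm3 against either of the other arrays. Differences of Ifitm2 and Ifitm3 between the HA-slash and no-HA arrays ranged from 0.02 to 0.36. The interferon-induced genes called in that comparison numbered 6 as reported, 14 with housekeeping scaling and 3 with the median over probe sets. All genes called between the HA arrays numbered 1823, and 1183 with the higher floor. No paired analysis was possible because each group holds 1 array. Signal near background limits any order among values under the floor.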
